A study of Mus musculus with 12 samples.

Results

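The 10 genes described here belong to the Bcl2 family, whose proteins decide at the mitochondrial outer membrane whether a cell survives or dies. They were chosen by name: the survival genes Bcl2, Bcl2l1 and Mcl1, the effectors Bax and Bak1, and the BH3-only genes Bcl2l11, Bid, Bad, Bbc3 and Pmaip1. The rule uses their names and no measured value, although earlier results of these data were known when the genes were picked. They are 10 of the 25793 genes in the count table, and 8 of them were among the 7542 genes with enough reads to be tested. Bbc3 and Pmaip1 had too few reads and are given by their values in each library.

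RNA was sequenced in 12 libraries of mouse T cells, 6 wild-type (WT, Pdcd1+/+) and 6 homozygous for a Pdcd1 knock-in allele (KI, Pdcd1KI/KI). In both groups the cells were CD4+ OT-II T cells, which recognise an ovalbumin peptide, and both had been transduced with GFP and transferred into B6 recipients with dsRed-expressing MD4 B cells. The recipients were immunized under the skin with the antigen HEL-OVA (the treatment label adds LPS and alum), and GFP+ cells with high CXCR5 were sorted from lymph node on day 5. The strain is given as C57BL/6, and each library came from 100 to 200 cells lysed directly and amplified by a protocol first made for single cells. The labels give neither what the knock-in allele changes nor the age or number of animals behind a library. Each title carries a first number, 1 or 2, and a second number from 1 to 3, with no meaning stated, so WT 1-3 below is the WT library with first number 1 and second number 3. Nothing says that libraries came from separate animals, so p-values measure the spread between these libraries, which may be technical. In such sorted pools fewer cells with a transcript and less of it per cell cannot be told apart.

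Survival members of the family (Bcl2, Bcl-xL encoded by Bcl2l1, and Mcl1) bind and restrain the effectors Bax and Bak, which otherwise permeabilise the outer membrane, release cytochrome c and start the caspase cascade. BH3-only proteins sense stress and tip this balance: Bim (Bcl2l11) and Puma (Bbc3) bind the survival proteins broadly, Bad binds Bcl2 and Bcl-xL, Noxa (Pmaip1) binds Mcl1, and Bid joins the pathway to death receptors once it is cleaved. In T cells, Bcl2 is maintained by interleukin 7, Mcl1 is needed for the survival of naive and activated cells, and Bim removes activated cells as an immune response ends. Transcript levels are measured here, while Mcl1, Bid and Bad are also known to be controlled at the protein level.

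Each library held between 717506 (WT 1-3) and 1801504 (KI 2-2) reads assigned to genes, the median being 1411040. Pdcd1 itself was at 163 to 516 CPM (counts scaled to a common library total) in the WT libraries and at 21.2 to 128 CPM in the KI libraries, so every KI library lay below every WT library; edgeR's quasi-likelihood test gave a log2 fold change of -2.05 (SE 0.42) and an adjusted p of 0.231. Pdcd1 passed once the first title number was a block (-2.24, SE 0.22, adjusted p 7.6e-06). The sort was checked by markers: the 8 T cell genes summed to 5247 to 7114 CPM, and the 8 follicular helper genes to 1567 to 2308 CPM. The latter sum includes Pdcd1 and Cxcr5, on which the cells were sorted (334 to 792 CPM). Icos was at 281 to 1051 CPM and Sh2d1a at 258 to 630 CPM. Bcl6 was at only 1.25 to 17.2 CPM and Il21 at 0 to 17.6 CPM. The 8 B cell genes analysed summed to 136 to 304 CPM in WT and 112 to 222 in KI, with Pax5 at 0 in every library. Of 7 myeloid genes Cd14 and Itgax were at 0, while Csf1r and Lyz2 reached 108 and 97.4 CPM in their highest library. The myeloid sum was 3.07 to 50.6 CPM except in WT 1-3, where it was 233 CPM. With first number 2 it was 29.5 to 50.6 CPM in KI and 3.71 to 11.9 CPM in WT, without overlap. With first number 1 the KI libraries were at 3.07 to 8.83 CPM and the lowest WT library at 10.5 CPM.

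Per unit of transcript length Mcl1 was the most abundant of the 10 genes. The authors' FPKM values, in which fragments are scaled to transcript length and library size, averaged 61.1 ± 25.7 for Mcl1 (SD, n = 12 libraries here and in this paragraph), against 9.28 ± 1.66 for Bcl2 and 3.86 ± 2.46 for Bcl2l1. The effector Bax averaged 18.3 ± 10.6 FPKM, while the other effector, Bak1, averaged 2.67 ± 1.22. Bid and Bad, whose products act after cleavage or dephosphorylation, averaged 15.4 ± 7.39 and 13.1 ± 8.98 FPKM. Bcl2l11 averaged 3.54 ± 3.37 FPKM, and the p53 target Bbc3 1.71 ± 1.58 FPKM. Pmaip1, the Noxa gene, averaged 0.434 ± 0.787 FPKM. In this order only the step from Mcl1 to Bax, in 12 of 12 libraries, and the step from Bcl2 to Bcl2l1, in 11 of 12, exceeded the SD of the difference between neighbours. The neighbours from Bax to Bcl2 and from Bcl2l1 to Pmaip1 were not separated beyond that spread. Bcl2 was the steadiest gene between libraries, with a coefficient of variation of 17.9%, and Bcl2l11 (95.3%) and Pmaip1 (181%) varied most.

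**Figure D1:**
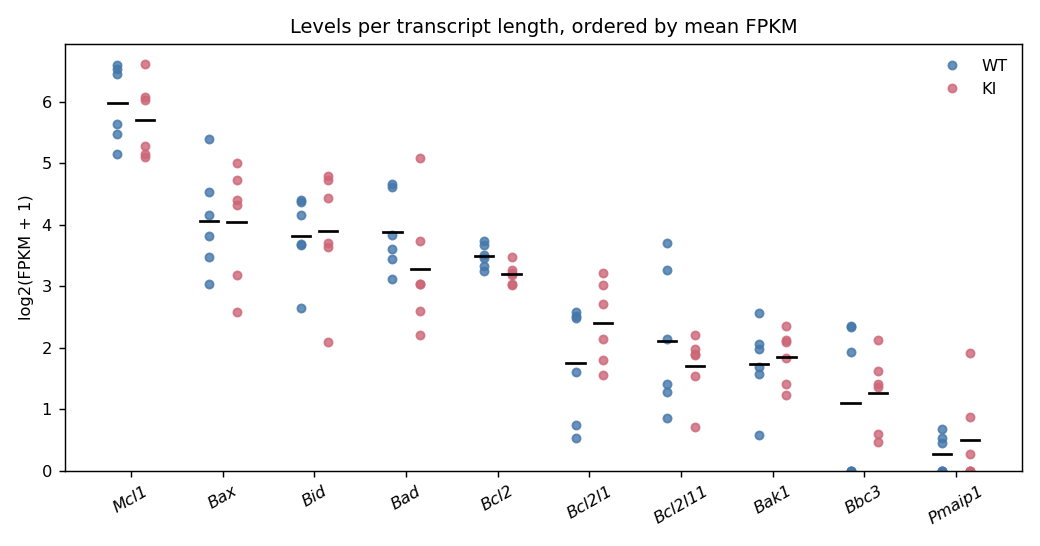
Deposited FPKM of each of the 10 genes in each of the 12 libraries, as log2(FPKM + 1), ordered by mean FPKM, with WT and KI in separate colours and bars for the mean of each genotype. Mcl1 stands highest in every library, Bax, Bid, Bad and Bcl2 overlap below it, and Bbc3 and Pmaip1 are at the bottom.

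The first question, stated in the series' design, was how KI cells differed from WT cells. No family member was called in the edgeR fit without covariates, which did not call Pdcd1 either (adjusted p 0.231). Of the 8 members tested 0 passed an adjusted p of 0.05 in edgeR, as did 2 of all 7542 genes (0.0265%), and 0 of 8 had an unadjusted p under 0.05, where 5.40% of all genes did. The point estimates were higher in KI for 3 members and lower for 5, with a median log2 fold change of -0.18 against 0.02 over all tested genes. Adjusted p-values ran from 0.938 to 0.995. The CPM ranges of the KI and WT libraries overlapped for all 8, while 0.385% of all genes had ranges that did not overlap. The intervals below show how large a change could have gone unseen with 6 libraries a group.

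**Figure D2:**
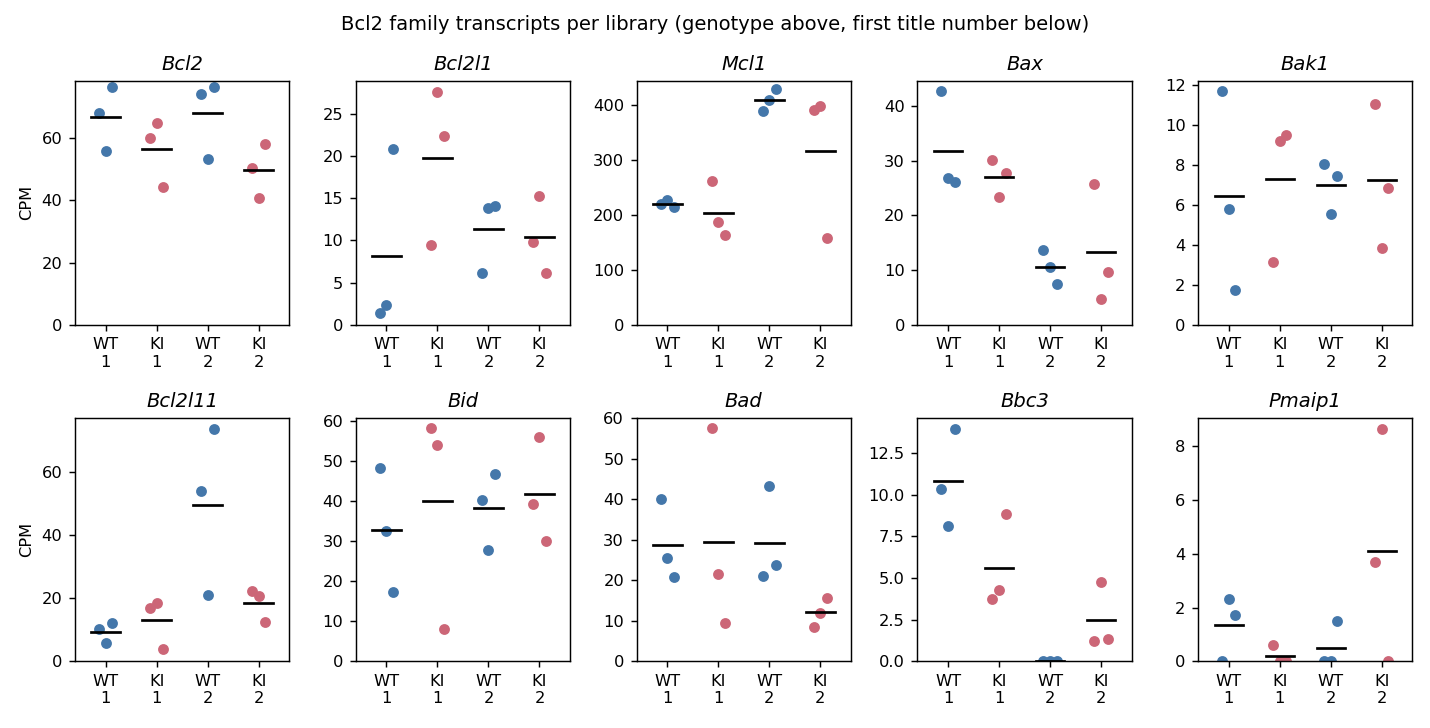
CPM of the 10 genes in each library, on axes that start at 0 and differ between panels, with the 3 libraries of each genotype and first title number in a column and a bar for their mean. With both first numbers pooled, WT and KI overlap in every panel, while within first number 2 they are separate for Bad and Bbc3. In the Mcl1 and Bax panels the first numbers separate more than the genotypes do.

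Among the survival genes, Bcl2 had the narrowest interval. Its model lies at chr1:108434755-108610851 on the minus strand (NCBIM37, the build called mm9). Exons of D630008O14Rik on the other strand cover 7.76% of its exon bases. Bcl2 was at 68.2, 55.9, 76.6, 74.2, 53.2 and 76.5 CPM in WT 1-1, 1-2, 1-3, 2-1, 2-2 and 2-3, and at 60.2, 65.0, 44.2, 50.4, 40.7 and 58.1 CPM in the KI libraries in the same order. The KI libraries tended to the lower side, but the ranges overlapped from 53.2 to 65.0 CPM. WT averaged 67.4 ± 10.5 CPM (SD, n = 6) and KI 53.1 ± 9.56 CPM (n = 6). Bcl2 thus differed by -0.35 in log2 (SE 0.25, 95% interval -0.86 to 0.16) with an adjusted p of 0.938 in edgeR.

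Bcl2l1, the Bcl-xL gene (chr2:152593052-152657464, minus strand), was low and scattered. Counts of Bcl2l1 were 2, 2, 12, 10, 25 and 19 reads in WT and 15, 45, 33, 8, 32 and 9 in KI, or 1.38 to 20.9 CPM in WT and 6.15 to 27.6 CPM in KI. The lowest values were WT 1-1 and WT 1-2, and the other libraries of both genotypes overlapped. The log2 fold change was 0.65 (SE 0.62, 95% interval -0.63 to 1.94; edgeR adjusted p 0.946), and the interval allows changes in either direction.

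Mcl1 (chr3:95462643-95467099, plus strand), whose short-lived protein holds Bak and Bim in check, was at 219, 227, 214, 388, 409 and 429 CPM in WT and at 262, 187, 162, 391, 397 and 157 CPM in KI. The values split by first number rather than by genotype: all 3 WT libraries with first number 2 and 2 of the 3 such KI libraries stood at 388 CPM or more, while KI 2-3 was the lowest of all 12. Means were 314 ± 104 CPM in WT and 259.5 ± 111 in KI (n = 6 each). The log2 fold change of KI against WT was -0.28 (SE 0.27, 95% interval -0.86 to 0.29; edgeR adjusted p 0.946).

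Of the effectors, Bax (chr7:52717065-52722268, minus strand) was at 42.7, 26.8, 26.1, 13.6, 10.5 and 7.43 CPM in WT and at 30.1, 23.3, 27.85, 25.8, 4.79 and 9.57 CPM in KI. The genotypes overlapped from 7.43 to 30.1 CPM, with WT 1-1 above and KI 2-2 below that range, and the 5 lowest values all came from libraries with first number 2. The log2 fold change of KI against WT was -0.07 (SE 0.52, 95% interval -1.15 to 1.02; edgeR adjusted p 0.992).

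Bak1, the second effector (chr17:27156755-27165954, minus strand), was at 1.74 to 11.7 CPM in WT and 3.13 to 11.1 CPM in KI, ranges that nearly coincide. Its log2 fold change was 0.05 (SE 0.55, 95% interval -1.10 to 1.20; edgeR adjusted p 0.995). In the annotation 14.8% of the exon bases of Bak1 lie under exons of Ggnbp1 on the other strand. Whether counting used strand is not given in the sources used here. Reads from that part may therefore be left out of the count or mixed with those of Ggnbp1.

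Bcl2l11, the Bim gene (chr2:127951774-127988283, plus strand), had the largest KI against WT difference among the tested members and the widest scatter. It was at 10.3, 5.82, 12.2, 53.8, 21.05 and 73.5 CPM in WT (15, 5, 7, 87, 38 and 99 reads) and at 16.9, 18.4, 4.08, 22.1, 20.6 and 12.3 CPM in KI (27, 30, 6, 18, 43 and 18 reads). WT 2-1 and WT 2-3 stood above all other libraries, and the other 10 overlapped without regard to genotype. Means were 29.5 ± 27.7 CPM in WT and 15.7 ± 6.64 in KI (n = 6 each). The log2 fold change was -0.93 (SE 0.57, 95% interval -2.11 to 0.25) with an adjusted p of 0.938 in edgeR. It was -0.56 in the fit blocked by first number, and -0.42 to -1.15 with 1 library left out, the smallest without WT 2-3.

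That Bcl2l11 difference was not the same sign in both sets of libraries. Between libraries with first number 2 alone it was -1.43 (edgeR adjusted p 0.855), and between those with first number 1 alone it was 0.47 (adjusted p 0.910).

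Bid (chr6:120841948-120866871, minus strand), the substrate of caspase 8 in death receptor signalling, was at 17.4 to 48.2 CPM in WT and 8.15 to 58.3 CPM in KI, and the KI range enclosed that of WT. The log2 fold change was 0.19 (SE 0.40, 95% interval -0.65 to 1.04; edgeR adjusted p 0.969). Exons of Bcl2l13 on the other strand cover 17.7% of the exon bases of Bid.

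Bad (chr19:7016351-7026388, plus strand), which survival kinases keep phosphorylated and inactive, was at 39.96, 25.6, 20.9, 21.0, 43.2 and 23.8 CPM in WT and at 57.7, 21.5, 9.51, 8.61, 11.97 and 15.7 CPM in KI. KI 1-1 was the highest of all 12 libraries, while 4 of the other 5 KI libraries lay below every WT library. Over all libraries the log2 fold change was -0.48 (SE 0.47, 95% interval -1.46 to 0.50; edgeR adjusted p 0.948), and without KI 1-1 it was -1.11 (unadjusted p 0.0179, adjusted p 0.996).

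Between libraries with first number 2, every KI library was below every WT library for Bad, the only one of the 8 tested members with separate ranges there, where 11.4% of all genes had them. The log2 fold change of Bad within them was -1.26 (unadjusted p 0.0429, adjusted p 0.913 in edgeR). Between libraries with first number 1 no tested member had separate ranges, against 15.7% of all genes. Gpr137 exons on the other strand cover 25.8% of the exon bases of Bad.

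**Figure D3:**
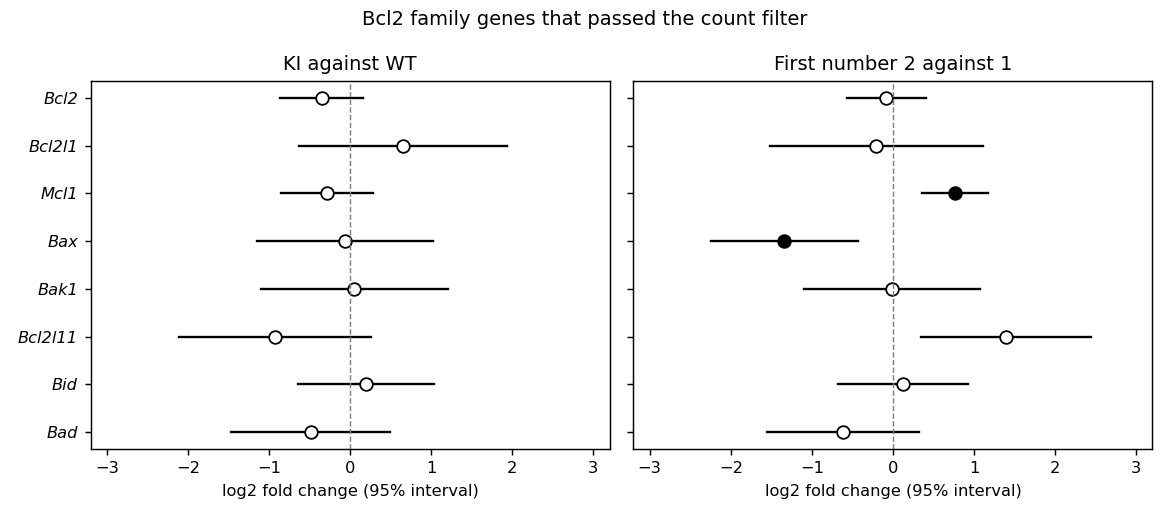
Log2 fold changes of the 8 tested members with 95% intervals from edgeR, filled where the adjusted p was under 0.05, for KI against WT and for first number 2 against 1. Every KI against WT interval includes 0, while those of Mcl1, Bax and Bcl2l11 for the first number do not.

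The BH3-only genes Bbc3 and Pmaip1 had too few reads for the test. Bbc3, the Puma gene (chr7:16894965-16903554, plus strand), had 15, 7, 8, 0, 0 and 0 reads in WT and 6, 7, 13, 1, 10 and 2 in KI. All 3 WT libraries with first number 2 had no read, where 3 reads, the number that a count of 0 still allows, would have given 1.66 to 2.23 CPM. On log2(CPM + 1) KI exceeded WT by 0.38, with a two-sided exact permutation p of 0.673 over 6 libraries a group. Pmaip1 (chr18:66618258-66625204, plus strand) had 0, 2, 1, 0, 0 and 2 reads in WT and 1, 0, 0, 3, 18 and 0 in KI. The 18 reads of KI 2-2 were most of all that Pmaip1 had, and a difference of 0.28 on log2(CPM + 1) had an exact permutation p of 0.697.

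Libraries with first number 2 differed from those with first number 1 more than KI differed from WT, and among the family Mcl1 rose and Bax fell. What the number stands for is not stated, so this is a comparison between sets of libraries and not between known conditions. With genotype in the model, 2 of the 8 tested members passed an adjusted p of 0.05 in edgeR, where 16.0% of all genes did, and 3 of 8 had an unadjusted p under 0.05 against 30.4% of all genes. The median log2 fold change of the 8 was -0.04 and that of all tested genes 0.01. The count of 2 is given beside that background as a description of these genes only.

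Mcl1 averaged 212 ± 34.3 CPM in the 6 libraries with first number 1 and 362 ± 101 CPM in the 6 with first number 2, a ratio of 1.71. It rose by a log2 fold change of 0.76 (SE 0.20, 95% interval 0.35 to 1.17; adjusted p 0.0108 in edgeR). In WT it averaged 220.1 ± 6.59 CPM against 409 ± 20.9 CPM (n = 3 each) with no overlap, and in KI 204 ± 51.9 against 315 ± 137 CPM with overlap, because KI 2-3 was low. The rise passed in each of the 12 fits that leave out 1 library. On the deposited FPKM values its adjusted p was 0.0528 or 0.0618, depending on the pseudocount.

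Bax averaged 29.5 ± 6.86 CPM with first number 1 and 11.96 ± 7.41 CPM with first number 2 (n = 6 each). It fell by 1.34 on the log2 scale (SE 0.44, 95% interval -2.25 to -0.43; adjusted p 0.0404 in edgeR). KI 2-1, at 25.8 CPM, was the only library with first number 2 inside the range of the others. This call was close to the threshold: of the 12 fits that leave out 1 library it passed in 2, without WT 1-3 (adjusted p 0.0489) and without KI 2-1 (0.0105), and the highest adjusted p in the other 10 was 0.0991.

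Mcl1 and Bax were the tested members that passed by first number in edgeR, and their promoters show what sequence lies at the start of each gene. RefSeq's table for the assembly GRCm38.p6 holds 9 of the 10 members, and each printed stretch runs 5′ to 3′ on the gene's strand from 250 bases before the start to 50 after it. The capitals mark GC boxes (GGGCGG on either strand), the sites that Sp1-type factors can bind. Mcl1 lies on the plus strand at chr3:95658471-95658770 and Bax on the minus strand at chr7:45466849-45467148 of that assembly.
Mcl1: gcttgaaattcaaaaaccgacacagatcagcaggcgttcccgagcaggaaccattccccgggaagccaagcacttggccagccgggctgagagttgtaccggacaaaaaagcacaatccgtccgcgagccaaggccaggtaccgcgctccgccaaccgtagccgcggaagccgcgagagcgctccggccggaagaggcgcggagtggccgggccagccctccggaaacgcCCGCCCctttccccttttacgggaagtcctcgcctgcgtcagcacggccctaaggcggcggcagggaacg
Bax: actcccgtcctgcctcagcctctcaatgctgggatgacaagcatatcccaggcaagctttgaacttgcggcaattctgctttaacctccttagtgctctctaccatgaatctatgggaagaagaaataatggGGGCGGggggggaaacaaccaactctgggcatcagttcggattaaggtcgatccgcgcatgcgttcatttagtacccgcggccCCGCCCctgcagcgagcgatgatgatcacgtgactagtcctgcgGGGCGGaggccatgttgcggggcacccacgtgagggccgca
The Mcl1 stretch held 1 GC box and the Bax stretch 3, and a GC box occurs in 35.7% of all 32851 promoters in the table. Bax also held 2 E boxes of the form CACGTG, which is its own reverse complement and occurs in 7.15% of promoters, and Mcl1 held 0. Neither held CCAAT on either strand (37.4% of promoters) or the STAT-type form TTCNNNGAA (8.30%). The GC content was 65.7% for Mcl1 and 57.3% for Bax, with a median of 52.7% over all promoters. These matches describe letters in a window and say nothing of binding in these cells, where none was measured.

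Bcl2l11 went in the direction of Mcl1 without passing the test: its log2 fold change by first number was 1.40 (SE 0.50, 95% interval 0.35 to 2.44; edgeR adjusted p 0.0628). DESeq2 gave it an adjusted p of 0.0249. In WT it averaged 9.45 ± 3.27 CPM with first number 1 and 49.5 ± 26.5 CPM with first number 2 (n = 3 each), 5.24 times as much, with no overlap. In KI the averages were 13.1 ± 7.88 and 18.3 ± 5.29 CPM, a ratio of 1.40, with overlap. Tested within one genotype, the WT difference of 2.36 had an adjusted p of 0.0381 and the KI difference of 0.48 an adjusted p of 0.749. The test of the difference between them, the interaction of genotype and first number, gave -1.91 (SE 0.91, 95% interval -3.80 to -0.02) with an unadjusted p of 0.0479 and an adjusted p of 0.687.

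By that interaction test 0 of the 8 members passed in edgeR, as did 0 of all 7542 genes (0%), and 1 of 8, Bcl2l11, had an unadjusted p under 0.05 against 7.21% of all genes. Its interaction value is therefore one of many of its kind in the table. Counting ranges instead, 3 of 8 members had separate ranges between first numbers within WT (Mcl1 and Bcl2l11 higher, Bax lower; 27.3% of all genes) and 0 of 8 within KI (26.5% of all genes). Over both genotypes 0 of 8 had separate ranges, against 6.52% of all genes.

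Bcl2, Bcl2l1, Bak1, Bid and Bad did not pass by first number. Their log2 fold changes were -0.08 for Bcl2 (edgeR adjusted p 0.854), -0.20 for Bcl2l1 (0.865), -0.01 for Bak1 (0.993), 0.13 for Bid (0.863) and -0.61 for Bad (0.381). Bbc3 averaged 8.21 ± 3.81 CPM with first number 1 and 1.23 ± 1.86 with first number 2 (n = 6 each). In WT no library of first number 2 had a read of Bbc3. The WT mean with first number 1, 10.8 CPM from 7 to 15 reads a library, was 5.64 times the floor. That floor is the mean of 1.92 CPM that 3 reads per library would give, and the ratio leaves out the error of the 10.8 CPM. In KI the mean with first number 1 was 2.29 times that with first number 2, and the ranges overlapped, since KI 2-2 had 10 reads. On log2(CPM + 1) the difference over all 12 libraries was -2.27, with a two-sided exact permutation p of 0.00649, or 0.015 when labels were exchanged within genotypes only. It stayed under 0.05 with each of the 12 libraries left out, while within WT alone p was 0.1, the smallest that 3 against 3 can give, and within KI alone 0.3. The exact permutation p of 0.00649 came from 1 of 4 such tests on Bbc3 and Pmaip1 over all 12 libraries with labels freely exchanged. Other versions, such as those within genotypes or with libraries left out, come on top of these 4. The edgeR test without the count filter gave Bbc3 an adjusted p of 0.0769. Pmaip1 differed by 0.49 on log2(CPM + 1) with an exact permutation p of 0.502.

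Markers of the sorted cells differed by first number as well. Of the 8 follicular helper genes 2 rose and 3 fell with first number 2 in edgeR, although their sums overlapped. Over all 7542 tested genes 8.47% rose and 7.54% fell, the background for each count of markers here. Icos, a costimulatory receptor (log2 fold change 0.76, adjusted p 0.0158), and Sh2d1a, which encodes the adaptor SAP (0.74, adjusted p 0.0026), rose. Pdcd1 (-1.56, adjusted p 8.4e-05), the transcription factor gene Tox2 (-1.30, adjusted p 0.0207) and the chemokine receptor gene Cxcr5 (-0.72, adjusted p 0.0021) fell. Of the 8 T cell genes Cd28 rose (0.50, adjusted p 0.0237). The summed cytotoxic and natural killer list was at 65.2 to 224 CPM with first number 1 and at 213 to 537 CPM with first number 2. Only 3 of its 10 genes could be tested, of which Nkg7 (log2 fold change 2.09, edgeR adjusted p 4.1e-05) and Cd8b1 (1.57, edgeR adjusted p 0.0332) rose. With 1 library left out, Nkg7 passed in 12 of 12 fits and Cd8b1 in 4. Ccl5, with more reads than Cd8b1, did not pass (1.26, edgeR adjusted p 0.12). Ncr1 was at 0 in every library, and Gzma, Gzmb and Prf1 did not exceed 8.14, 7.20 and 9.97 CPM. The part of these marker differences in the Mcl1 and Bax differences was not tested. The myeloid transcripts of WT 1-3 were named above, and without that library the Mcl1 rise was 0.74 (edgeR adjusted p 0.0214).

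Summed per length, the 10 genes were weighted towards survival transcripts in libraries with first number 2. Other family genes are outside these sums. Among them the survival gene Bcl2a1b alone was at 88.9 FPKM (KI 1-2, its lowest) to 282 FPKM (WT 2-3, its highest). Bcl2, Bcl2l1 and Mcl1 made up 39.1% to 57.3% of the summed FPKM of the 10 genes with first number 1. With first number 2 they made up 57.6% to 69.7%, so the sets did not overlap. The means were 48.9% ± 6.65 and 65.3% ± 4.13 (SD, n = 6 each). Bax and Bak1 held 24.0% ± 5.55 and 10.3% ± 5.49, and the BH3-only genes 27.1% ± 8.43 and 24.3% ± 4.31. Between genotypes the survival share was 58.0% ± 11.2 in WT and 56.3% ± 9.80 in KI, a difference well inside the spread. The ratio of Mcl1 to Bax in FPKM was 1.19 to 2.06 with first number 1 and 3.50 to 19.3 with first number 2. That of Bcl2l11 to Bcl2 was 0.0783 to 0.326 and 0.221 to 1.02. These shares and ratios rest on the values of the members already given and carry no test of their own.

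**Figure D4:**
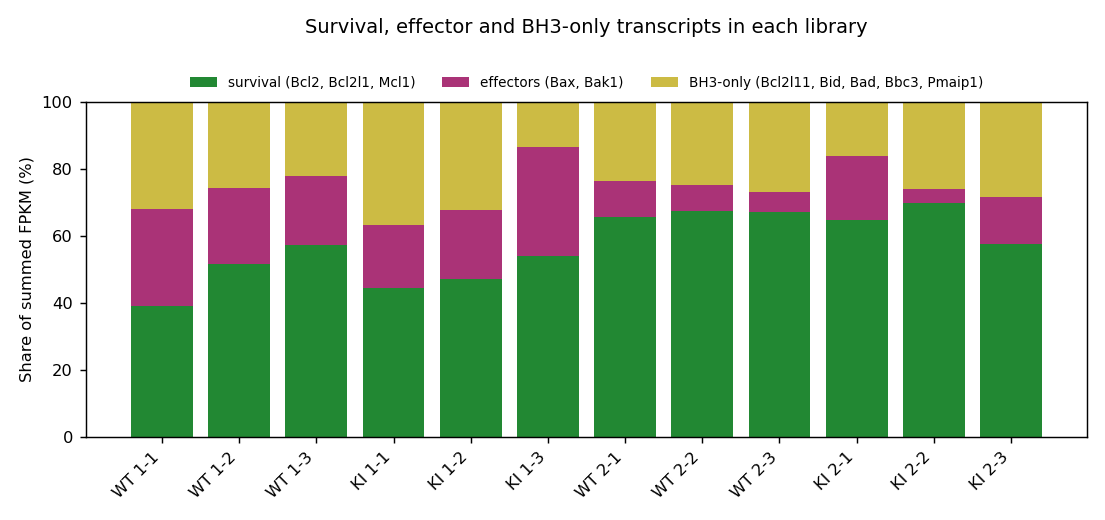
Share of the summed FPKM of the 10 genes held by survival genes, effectors and BH3-only genes in each of the 12 libraries, in percent. The survival share is 57.6% or more in all 6 libraries with first number 2 and 57.3% or less in all 6 with first number 1.

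Around the family, 80 further genes of cell death and survival were looked at in 6 lists, of which 59 could be tested. Between KI and WT 0 of 59 passed in edgeR, with 31 higher and 28 lower in sign, against the 0.0265% of all genes. By first number 7 rose and 3 fell, where 8.47% of all genes rose and 7.54% fell. By the interaction 0 of 59 passed. Of the 10 calls by first number, those of Bcl2a1b, Birc3, Ccng1, Trp53inp1 and Huwe1 passed in all 12 fits that leave out 1 library. Fasl passed in 9 of them, Usp9x in 6, Bnip3l and Pim2 in 5 each and Birc2 in 2.

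Of the other Bcl2 family genes 5 of 16 could be tested, and 2 of them rose with first number 2. They were Bcl2a1b, one of the near-identical copies of the survival gene A1 (log2 fold change 0.79, edgeR adjusted p 0.0108), and Bnip3l, which marks mitochondria for autophagy (0.61, adjusted p 0.0318). Reads of the A1 copies can be split or lost between them, so the value of Bcl2a1b is uncertain. The list's median was 0.61 by first number and -0.17 for KI against WT, where the smallest p belonged to another A1 copy, Bcl2a1d (-0.98, unadjusted p 0.0086, adjusted p 0.914).

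In the apoptosome, caspase and inhibitor list 16 of 18 were tested, and Birc2 and Birc3 rose by first number. Both encode cellular inhibitor of apoptosis proteins, ubiquitin ligases at tumour necrosis factor receptors, and had log2 fold changes of 1.19 (edgeR adjusted p 0.0479) and 1.70 (0.0031). The list's median was 0.67, with 14 of 16 above 0, where 3799 of all 7542 tested genes were above 0 and their median was 0.01. The other 14 genes of the list were not called. Between KI and WT the smallest p was that of Birc5, the mitotic gene for survivin, at 1.24 (unadjusted p 0.0283, adjusted p 0.917).

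Among 10 of 12 death receptor genes tested, Fasl, the ligand of Fas, fell by 2.63 on the log2 scale with first number 2 (edgeR adjusted p 0.0134). WT 1-3, the library with the highest sum of myeloid transcripts, held 1164 CPM of Fasl, and the other 11 libraries 0.683 to 144 CPM. Without WT 1-3 the difference by first number was -1.30 and did not pass (adjusted p 0.0995). For KI against WT the log2 fold change of Fasl was -4.19 (adjusted p 0.231), and without WT 1-3 it was -2.35 (adjusted p 0.697). Of 12 p53 pathway genes 8 were tested, and the p53 targets Ccng1 (1.11, adjusted p 0.0061) and Trp53inp1 (1.39, adjusted p 0.0103) rose by first number. Bbc3 and Pmaip1, also targets of p53, were not tested there for lack of reads, and the Bbc3 values given above were lower with first number 2. Gadd45b had the smallest KI against WT p of that list, with -0.37 (adjusted p 0.938).

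Of the survival cytokine receptor and signalling genes 14 of 16 were tested, and Pim2, a kinase that phosphorylates Bad, fell by 0.82 with first number 2 (edgeR adjusted p 0.0314). The smallest KI against WT p was that of Il7r, the interleukin 7 receptor that maintains Bcl2 in T cells, at -1.21 (unadjusted p 0.0376, adjusted p 0.917). All 6 genes known to control Mcl1 protein were tested. Huwe1, a ubiquitin ligase for Mcl1, fell by 1.11 (adjusted p 0.0050), and Usp9x, which removes ubiquitin from Mcl1, rose by 1.27 (adjusted p 0.0382). Usp9x also had this list's smallest p for KI against WT, with -0.75 (adjusted p 0.938).

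**Figure D5:**
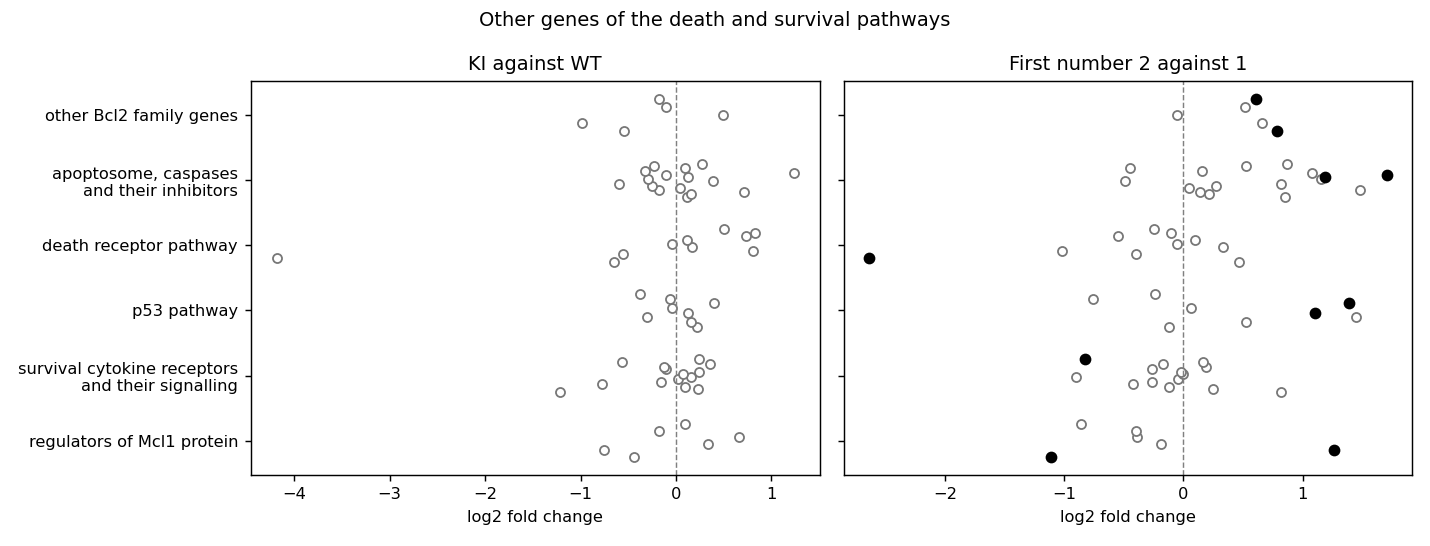
Log2 fold changes of the tested genes of the 6 cell death and survival lists, for KI against WT and for first number 2 against 1, with genes past an adjusted p of 0.05 as filled points. Filled points, 7 above 0 and 3 below, appear only in the comparison by first number.

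Genes whose level followed a member most closely over the 12 libraries were listed for Bcl2, Mcl1 and Bcl2l11, as a description. For Mcl1 they were Cd44 (Pearson r 0.931), the adhesion receptor raised on activated T cells, Itga4 (0.927), an integrin chain, and BC005537 (0.918). Within the 6 libraries of first number 1 these r were 0.639 to 0.647 and within first number 2 0.927 to 0.963. These values belong to the same 12 libraries that chose the genes. For Bcl2l11 they were Rab10 (0.883), Ccng2 (0.879) and Cramp1l (0.850). For Bcl2, Taz (0.743), Ifi30 (0.722) and Fiz1 (0.690) came first, at lower r. All points share their library's depth and scaling, and 3780 or 3781 genes were ranked for each member.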

How the data were processed

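RNA from sorted mouse T cells was measured in 12 libraries, and every column of the deposited tables that holds a sample was used (0 left out). The authors deposited raw read counts per gene symbol, with 25793 genes and 5 summary entries for unassigned reads, which held 39.8% to 53.9% of each library's entries and were left out. The deposited FPKM values were computed by the authors per the file headers, and FPKM of repeated names were summed here. The submitters' processing notes name CASAVA, TopHat2, Cufflinks, HTSeq, DESeq2 and mm9, with no versions or roles, and use of strand is not given in the sources used here.

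Groups and title numbers came from the labels. Counts were tested in R 4.3.3 with edgeR 4.0.16 (filterByExpr, TMM, glmQLFit and glmQLFTest) on all 7542 genes kept, and a Benjamini-Hochberg adjusted p under 0.05 counted as changed. KI was compared with WT without covariates, first number 2 with 1 with genotype as covariate, and their interaction in one further model. CPM are counts scaled to the TMM-adjusted library total. The log2 CPM used for correlations had a prior count of 2, while edgeR's log2 fold changes kept that tool's default. Bbc3 and Pmaip1, below the filter, were tested by two-sided exact permutation on log2(CPM + 1). The edgeR script was tested on simulated data first. Libraries of 717506 to 1801504 assigned reads leave genes with few reads imprecise, and amplified reads are not independent molecules, so count floors of 3 reads cover counting error only.

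The 10 members, the gene lists and the tests were chosen with earlier results of these data known. Named are all members, Pdcd1, list genes past the threshold (at most 4 a list by first number), the gene of each list with the smallest KI against WT p, and for Bcl2, Mcl1 and Bcl2l11 the 3 genes with a mean of 50 or more counts and the highest correlation of log2 CPM. Markers and the genes the results turn on are named besides. Alternatives were DESeq2 1.42.0, limma-voom (limma 3.58.1), other scaling and filters, FPKM with pseudocounts of 1 and 0.1, blocks, subsets and leaving out each library; this last, for genes other than members and for the interaction, and edgeR's newer quasi-likelihood method were chosen after seeing the data. Gene positions come from the GENCODE annotation of NCBIM37, and promoters from RefSeq's GRCm38.p6 table, in which coordinates differ from those of mm9.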

Additional observations from a re-analysis of the deposited data

Results flagged for a closer look

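Of 20 sets of 6 libraries, the members by genotype, 1 held a library far from the rest, which is about the number that chance gives at 1 in 20. It was Bad in the KI libraries: KI 1-1 stood at 57.7 CPM (92 reads) and the next highest, KI 1-2, at 21.5 CPM, a gap of 0.738 of the whole range. Bad in that library was also above all 6 WT libraries.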

How the results depend on the processing

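With the first title number as a replicate block, 4 genes differed between KI and WT in place of 2 (3 higher and 1 lower, the lower being Pdcd1), and with both numbers as a replicate block 3 did; 0 of the 8 tested members passed with either block. Libraries with the same first number deviated together (mean r 0.166 over 18 pairs), but once first-number means were removed, libraries alike in both numbers did not (mean r -0.0049 over 6 pairs), so the numbers show no pairing.

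For KI against WT, genes called numbered 11 in DESeq2, 1 in limma-voom, 4 without the count filter, 0 on FPKM with either pseudocount, 1 in libraries with first number 2 alone, and 0 to 2 with 1 library left out (332 to 615 at an unadjusted p under 0.05). By first number they numbered 381 in WT alone, 359 in KI alone and 751 to 1252 with 1 library left out, the fewest without KI 2-2. By the interaction they numbered 7 in DESeq2 and 0 to 24 with 1 library left out, the 24 without WT 1-1. No member passed for KI against WT in any of 237 alternative values.

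Signs reversed only in comparisons in which the member had not passed. KI against WT did so for Bak1 in limma-voom (-0.17) and edgeR's newer quasi-likelihood method (-0.10), Bid in limma-voom (-0.0091), Bbc3 without the filter (-0.28), Bcl2l11 (0.47), Bad (0.0097), Bbc3 (-0.89) and Pmaip1 (-0.81) within first number 1, and Bcl2l1 (-0.11) and Bax (0.30) within first number 2; with 1 library left out the ranges were -0.24 to 0.28 for Bax, -0.12 to 0.28 for Bak1 and -0.16 to 0.49 for Pmaip1. By first number they were Bak1 under upper-quartile scaling (0.019), on FPKM (0.11 and 0.25) and in WT alone (0.0041), Bcl2l1 on FPKM (0.073 and 0.28) and in WT alone (0.57), and Pmaip1 in WT alone (-0.62); left-out ranges were -0.17 to 0.29 for Bak1, -0.53 to 0.30 for Bcl2l1 and -0.094 to 0.30 for Bid. For the interaction they were -0.86 to 0.29 for Bak1, -0.60 to 0.24 for Bid, -0.33 to 0.95 for Bax and -0.48 to 0.057 for Mcl1. The cause was not tested. Order by CPM kept 6 of 10 positions of the order by FPKM. FPKM with a pseudocount of 0.1 moved the median of all genes by first number to 0.11. The Bax fall did not pass without the filter (adjusted p 0.0515) or within WT (0.122) or KI alone (0.395), nor the Mcl1 rise within KI alone (0.255). Depth limits Bcl2l1, Bak1, Bbc3 and Pmaip1 most. The filter of 50 mean reads gave no value for members below it, and DESeq2, limma-voom and the newer method gave none for Bbc3 and Pmaip1.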
